A study of Rattus norvegicus with 8 samples.

Results

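The genes of 2 enzyme families that make superoxide and nitric oxide, the NADPH oxidases and the nitric oxide synthases, were followed in the cortex of rats after an experimental stroke. They were Nos1, Nos2, Nos3, Cybb, Cyba, Ncf1 and Nox4, and every probe of the deposited table whose gene symbol was one of these names was taken. This covered all 7 genes, of 10982 gene symbols on the array, with 13 of 23609 probes: 3 for Nos1, 3 for Nos2, 1 for Nos3, 1 for Cybb, 2 for Cyba, 2 for Ncf1 and 1 for Nox4. All 13 had a value on all 8 arrays, as had 23376 probes in all. Probes of a gene are numbered here in the order of the figures, and for 5 of the 13 (the 3 of Nos1, that of Cybb and Cyba probe 1) the deposited accession also matched the gene in RefSeq.

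The tMCAO group held 4 Sprague Dawley rats whose middle cerebral artery had been occluded transiently, a model of ischaemic stroke with reperfusion, and the sham group held 4 Sprague Dawley rats with a sham operation. Both groups were taken at 24 h, and no genetic change is named for either. The duration of the occlusion and the age and sex of the rats are not given in the sources used here. RNA came from the ipsilateral cortex of a section 4 mm thick. The RNA of each animal was labelled with Cy5 and hybridised, on an array of its own, against Cy3-labelled RNA from a pool of sham cortex, always in this dye orientation, so that a transcript as abundant in the animal as in the pool has a log2 ratio of 0.

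NADPH oxidases are membrane enzymes that pass electrons from NADPH to oxygen and release superoxide or hydrogen peroxide. In the phagocyte enzyme, the catalytic subunit gp91phox (Cybb) is held in the membrane by p22phox (Cyba) and is switched on when the cytosolic subunits, led by p47phox (Ncf1), and a Rac GTPase join it; it is known from neutrophils, macrophages and microglia. Nitric oxide synthases make nitric oxide from arginine with calmodulin and tetrahydrobiopterin: the neuronal enzyme (Nos1) sits at synapses and in a class of cortical interneurons, the endothelial enzyme (Nos3) in vessel walls, and the inducible enzyme (Nos2) is made by glia and leukocytes on inflammatory signals. Superoxide and nitric oxide react with each other to form peroxynitrite.

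Cyba, Cybb and Nos3 are the members with a probe higher after tMCAO (below), and their promoters are shown because these are the 3 genes with a called probe. The sequences are the 250 bases before the annotated start, 5′ to 3′ on the strand of the gene, from RefSeq (GRCr8 assembly; 6 of the 7 members matched an entry). Nos3 lies at chr4:11706582-11706831, minus strand, Cybb at chrX:16065066-16065315, minus strand, and Cyba at chr19:67404215-67404464, minus strand. Capitals mark matches, on either strand, to GAGGAA (the core bound by PU.1 and related ETS factors), GGGCGG (the GC box) and CCAAT (the CCAAT box), which do not overlap one another here.
Cyba: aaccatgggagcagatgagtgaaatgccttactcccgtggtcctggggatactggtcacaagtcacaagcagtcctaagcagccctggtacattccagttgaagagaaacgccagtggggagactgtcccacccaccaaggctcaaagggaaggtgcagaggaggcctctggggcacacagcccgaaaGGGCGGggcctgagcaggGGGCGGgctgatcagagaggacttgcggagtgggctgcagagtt
Cybb: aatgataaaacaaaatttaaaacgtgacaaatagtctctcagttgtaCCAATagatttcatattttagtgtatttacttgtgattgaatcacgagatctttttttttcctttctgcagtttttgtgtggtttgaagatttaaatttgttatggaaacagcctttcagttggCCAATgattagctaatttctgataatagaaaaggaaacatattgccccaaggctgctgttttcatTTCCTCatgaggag
Nos3: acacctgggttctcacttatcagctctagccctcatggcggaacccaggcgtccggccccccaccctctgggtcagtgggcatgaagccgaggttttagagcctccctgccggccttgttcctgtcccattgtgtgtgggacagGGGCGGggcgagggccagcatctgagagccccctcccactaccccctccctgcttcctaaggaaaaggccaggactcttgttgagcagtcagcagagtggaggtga
In Cyba both matches were GC boxes, 62 to 57 and 44 to 39 bases before the start. In Cybb, TTCCTC, the reverse strand of GAGGAA, lay 14 to 9 bases before the start, with a CCAAT box at 203 to 199 and another at 79 to 75 bases. Nos3 held 1 GC box, 106 to 101 bases before the start. The windows of Nos1, Ncf1 and Nox4, which had no called probe, also held GC boxes. Among 33469 rat promoter windows of this length, 23.3% held GAGGAA, 30.5% GGGCGG and 34.0% CCAAT, so each of these matches is frequent.

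Of the 13 probes, 3 were higher in tMCAO than in sham cortex: the first of the 2 Cyba probes, the Cybb probe and the Nos3 probe. None was lower, and 10 were not called (limma, Benjamini-Hochberg adjusted p under 0.05 over all 23376 probes; at an unadjusted p under 0.05, 4 were higher and 0 lower). Among all probes 14.5% were called higher and 15.1% lower, 29.6% in all, so a share of 3 in 13 is near the background and says nothing of the members as a set. The median log2 difference was 0.13 over the 13 member probes and -0.05 over all probes. In 4 of the 13 probes the tMCAO arrays all lay above the sham arrays (both Cyba probes, Cybb and Nos3), which held for 13.4% of all probes, and 28.8% of all probes had groups that did not overlap in either direction. The labels call the 4 animals of a group biological replicates, so the p-values measure the spread between animals.

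**Figure D1:**
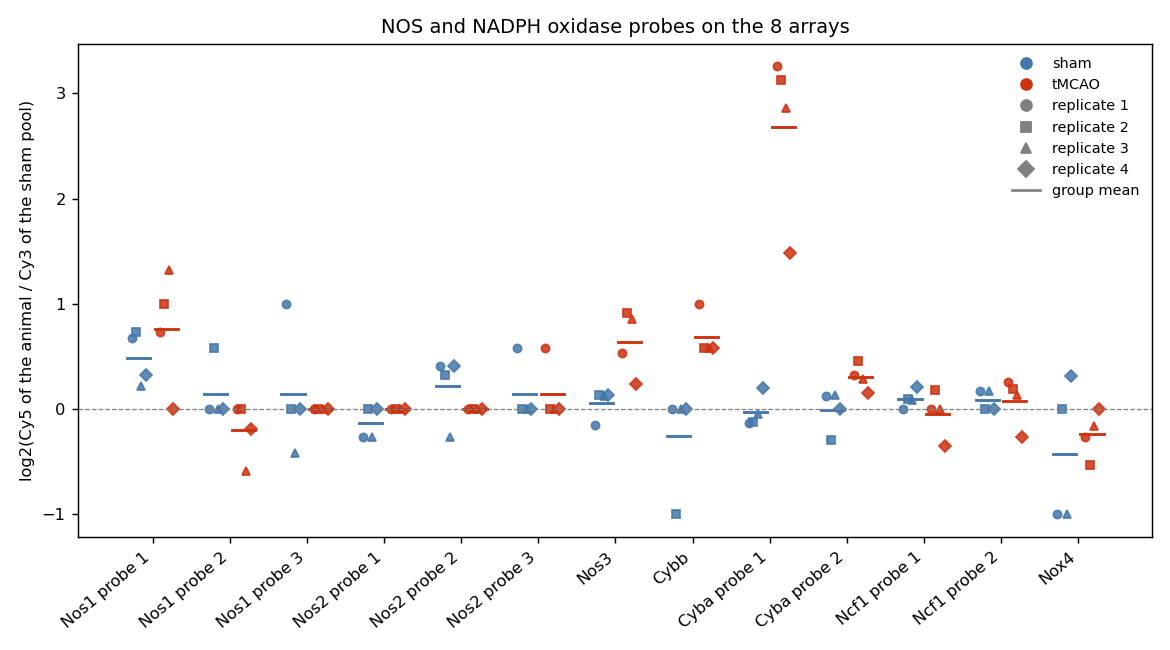
Log2 ratio of each animal (Cy5) to the sham pool (Cy3) for the 13 probes, with sham animals in blue, tMCAO animals in red, a marker shape per replicate and a line at each group mean. Cyba probe 1 is far above the sham animals on all 4 tMCAO arrays, with replicate 4 at 1.49 and the others at 2.87 to 3.26, while most other probes stay within about 1 log2 unit of the pool.

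The signal behind each probe sets how firmly it can be read. The deposited intensities of at least 0.01 were rounded to 2 decimals, so ratios of intensities of a few hundredths are coarse. The mean Cy5 intensity was below 0.1 for 9 of the 13 probes and at least 0.1 for 4: Nos3, both Cyba probes and Ncf1 probe 1. Over all probes, 12.9% of those below 0.1 and 36.2% of those at or above it were called in either direction. A range within rounding is given below beside the error of the fit. It is the span of differences that the unrounded intensities could have had, and was added after seeing the data. For probes with values of 0.01 (Cybb, Nox4 and Nos1 probe 3) it is wider than the deposited digits allow. There it lets 0.01 stand for less, though smaller values carry more digits.

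**Figure D2:**
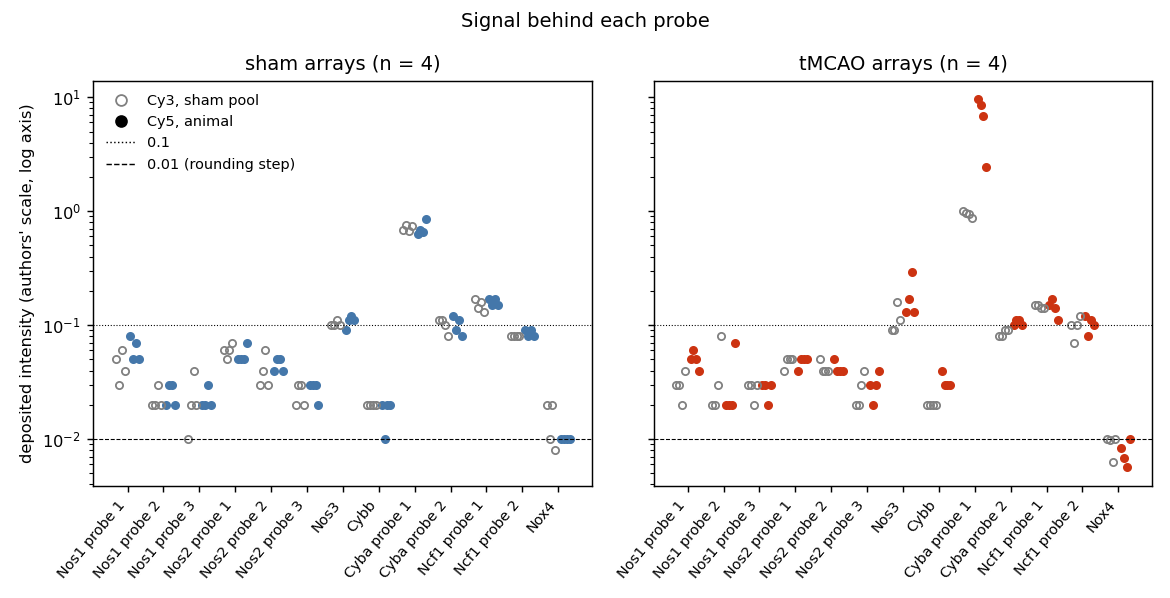
Deposited intensity of the 13 probes on a log axis, sham arrays on the left and tMCAO arrays on the right, with the sham pool (Cy3) as open grey circles and the animal (Cy5) as filled circles. Dotted and dashed lines mark 0.1 and the rounding step of 0.01; the Nos1, Nos2, Cybb and Nox4 probes lie below 0.1 on all arrays, and only Cyba probe 1 reaches intensities above 1.

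Replicate 4 of tMCAO stood apart from the other tMCAO animals across the whole array. The SD of its log2 ratios was 0.368, with 0.614 to 0.741 for the other 3 tMCAO animals and 0.23 to 0.258 for sham animals. By the deposited p-values of the authors, 11.7% of probes on this array had a p below 0.01 for animal against pool; the share was 29.0% to 35.4% for the other tMCAO animals and 1.88% to 2.73% for sham animals. All 6 measured neuron markers were lower in tMCAO than in sham cortex, among them Camk2a (-1.39 ± 0.44, SE) and Nefm (-1.11 ± 0.16). The count was 3 without any 1 sham array or without tMCAO replicate 1 or 3, 4 without replicate 2, 5 without replicate 4 and 1 with quantile-normalized ratios. Markers of the striatum were also present: their median log2 ratio was -0.57 to -0.44 in sham animals and -1.66 to -1.06 in tMCAO animals. Every animal thus read lower than the pool on this list. As the pool was always labelled with Cy3, a dye effect on these probes and a difference in content cannot be told apart. In a bulk sample, fewer cells of a type and less RNA per cell cannot be told apart.

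Cyba encodes p22phox, the membrane partner that the catalytic subunits Cybb and Nox4 both need. The Cy5 intensity of Cyba probe 1 was 0.63, 0.69, 0.65 and 0.85 in the 4 sham animals and 9.56, 8.5, 6.85 and 2.44 in the 4 tMCAO animals. The groups were far apart, and tMCAO replicate 4 was the lowest of its group. As log2 ratios to the pool, sham animals lay at -0.13, -0.12, -0.04 and 0.20 and tMCAO animals at 3.26, 3.13, 2.87 and 1.49. The difference was 2.71 ± 0.35 on the log2 scale (SE, 4 animals per group; 95% interval 1.90 to 3.51), or 6.54-fold higher in tMCAO cortex, with a limma adjusted p of 0.0031. Rounding allows 6.41- to 6.68-fold. It was the 50th largest rise of the 23376 probes. The authors' deposited p-value for this probe was below 0.01 on 4 of 4 tMCAO arrays and on 0 of 4 sham arrays.

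The call on Cyba probe 1 was kept in all 23 alternative settings run, where the log2 difference was between 1.51 and 3.11; the lowest is the mean of both Cyba probes and the highest the value without tMCAO replicate 4. Its pool signal also moved: the Cy3 intensity was 0.67 to 0.75 on sham arrays but 0.87 to 1 on tMCAO arrays, a log2 difference of 0.41 (1.33-fold, adjusted p = 0.0032). This was the 1 member probe of 13 whose pool signal was called, while 26.5% of all probes were called higher in the pool signal and 36.7% in either direction. Since the pool is the same kind of RNA on every array, the ratio divides by a slightly higher value on the tMCAO arrays; the part of this shift in the result was not tested, and the quantile-normalized Cy5 signal alone differed by 3.02.

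The second Cyba probe did not follow the first. Its Cy5 intensity was 0.12, 0.09, 0.11 and 0.08 in sham animals and 0.1, 0.11, 0.11 and 0.1 in tMCAO animals, which overlap. Its log2 ratios were 0.13, -0.29, 0.14 and 0.00 in sham animals against 0.32, 0.46, 0.29 and 0.15 in tMCAO animals, a narrow separation of the groups. The difference of 0.31 ± 0.12 (SE; 95% interval 0.04 to 0.58) was not called (adjusted p = 0.079; called in 4 of 22 alternatives, 1 of them the mean of both probes), and rounding allows 1.01- to 1.53-fold. Per array, the log2 ratio of probe 1 exceeded that of probe 2 by -0.02 ± 0.24 in sham and 2.38 ± 0.71 in tMCAO animals (SD, n = 4 each). This comparison was chosen after the values were seen, so it is given as a description. The labels and files do not say which Cyba transcripts either probe detects. The accession of the second probe, like those of 8 of the 13 member probes, is not in the RefSeq table used.

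Cybb, the catalytic subunit gp91phox, was higher in tMCAO cortex, but at a signal of only a few rounding steps. Its Cy5 intensity was 0.02, 0.01, 0.02 and 0.02 in sham animals and 0.04, 0.03, 0.03 and 0.03 in tMCAO animals, and the pool read 0.02 on all 8 arrays. Every tMCAO value was above every sham value. The log2 ratios were 0, -1, 0 and 0 against 1.00, 0.58, 0.58 and 0.58, a difference of 0.94 ± 0.24 (SE; 95% interval 0.40 to 1.48; 1.92-fold; limma adjusted p = 0.0196). Within rounding the fold change could be as low as 0.742, so the direction itself is not settled by the deposited decimals. The upper end of this range was computed as 5.45, which is too high, since it lets the sham value of 0.01 stand for less. The authors' deposited p-values, whose error model is unknown here, were 9.27e-07, 0.00731, 0.02 and 0.33 on tMCAO replicates 1 to 4 and 0.51 to 0.83 on the sham arrays. The call was lost in 5 of 22 alternatives: with intensities floored at 0.05, where every value of this probe equals the floor and the difference is 0 (adjusted p = 1), without tMCAO replicate 1 (0.83, adjusted p = 0.0571), with quantile-normalized ratios (0.84, adjusted p = 0.0953), without variance moderation (adjusted p = 0.0545) and at a threshold of 0.01.

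Ncf1, the organiser subunit p47phox, gave no call on either probe. The Cy5 intensity of probe 1 was 0.17, 0.15, 0.17 and 0.15 in sham animals and 0.15, 0.17, 0.14 and 0.11 in tMCAO animals. The difference in log2 ratio was -0.14 ± 0.12 (SE; 95% interval -0.41 to 0.13; adjusted p = 0.396). For probe 2 it was 0.00 ± 0.13 (95% interval -0.29 to 0.28; adjusted p = 0.994), with Cy5 intensities of 0.08 to 0.09 in sham and 0.08 to 0.12 in tMCAO animals. On both probes the groups overlapped and tMCAO replicate 4 had the lowest ratio, -0.35 on probe 1 and -0.26 on probe 2. The upper ends of these intervals lie below the lower end for Cyba probe 1. Both intervals overlap that of Cyba probe 2 (0.04 to 0.58), however, and no test of the difference between genes was made.

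Nox4, an oxidase that needs p22phox but not the cytosolic subunits, was at the bottom of the scale. Its Cy5 intensity was 0.01 in all 4 sham animals and 0.00831, 0.00683, 0.00568 and 0.01 in the tMCAO animals. The difference in log2 ratio was 0.18 ± 0.31 (SE; 95% interval -0.52 to 0.88; adjusted p = 0.673). The computed rounding range was 0.378- to 4.40-fold. It is too wide, as it lets a deposited 0.01 stand for less than 0.01, while smaller values carry more digits. With a 95% interval that spans 0, no direction can be given for Nox4.

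Nos3, the endothelial nitric oxide synthase, was moderately higher in tMCAO cortex. Its Cy5 intensity was 0.09, 0.11, 0.12 and 0.11 in sham animals and 0.13, 0.17, 0.29 and 0.13 in tMCAO animals. The groups did not overlap, and tMCAO replicate 3 was the highest; on that array the pool signal was 0.16, against 0.09 to 0.11 on the other 7. The log2 ratios were -0.15, 0.14, 0.13 and 0.14 in sham animals and 0.53, 0.92, 0.86 and 0.24 in tMCAO animals. The difference was 0.57 ± 0.16 (SE; 95% interval 0.21 to 0.94), or 1.49-fold, with a limma adjusted p of 0.028, and 1.25- to 1.77-fold within rounding. The authors' deposited p-value was below 0.01 on 2 of 4 tMCAO arrays and 0 of 4 sham arrays.

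The Nos3 call was close to the threshold. Its direction was the same in all 23 alternatives, where the log2 difference was 0.32 to 0.73, but the call was lost in 11 of them. It was lost on leaving out any 1 of the 4 sham arrays or any 1 of tMCAO replicates 1, 2 and 3 (adjusted p = 0.0518 to 0.0774 over these 7), and kept without tMCAO replicate 4 (0.71, adjusted p = 0.0027). With quantile-normalized ratios the difference was 0.32 (adjusted p = 0.19).

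**Figure D3:**
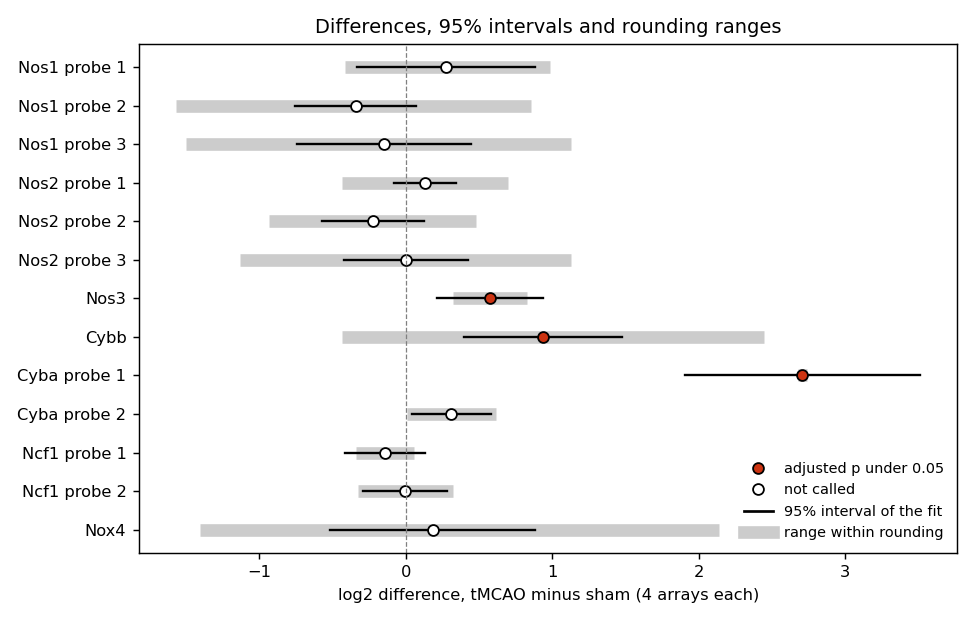
Log2 difference, tMCAO minus sham, for the 13 probes (point), with the 95% interval of the limma fit (line) and the range within rounding (grey bar). Filled points are called at an adjusted p under 0.05. The grey bar of Cyba probe 1 is narrower than its point, while that of Cybb runs from -0.43 to 2.45 and spans 0. The bars of Cybb, Nox4 and Nos1 probe 3 are wider than the deposited digits allow.

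Nos1, the neuronal synthase, had 3 probes and no call. On probe 1 the Cy5 intensity was 0.08, 0.05, 0.07 and 0.05 in sham animals and 0.05, 0.06, 0.05 and 0.04 in tMCAO animals. Its log2 ratios were 0.68, 0.74, 0.22 and 0.32 in sham animals and 0.74, 1.00, 1.32 and 0.00 in tMCAO animals, so the groups overlapped, with tMCAO replicates 2 and 3 above and replicate 4 below all sham animals. The difference was 0.27 ± 0.27 (SE; 95% interval -0.33 to 0.88; adjusted p = 0.457). Without tMCAO replicate 4 it was 0.53 and called (adjusted p = 0.0455), and against the pool alone tMCAO animals lay at 0.76 (adjusted p = 0.0101). The sham animals too were above the pool, by 0.49 ± 0.19 (SE; unadjusted p = 0.0301, adjusted p = 0.553 in the limma fit), and the Cy3 intensity was 0.03 to 0.06 on the sham and 0.02 to 0.04 on the tMCAO arrays. In the Cy5 signal alone the direction was the opposite (-0.23, adjusted p = 0.466), as it was with quantile-normalized ratios (-0.43, adjusted p = 0.318), so no direction can be given for this probe.

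On Nos1 probe 2 the difference was -0.34 ± 0.18 (SE; 95% interval -0.75 to 0.07; adjusted p = 0.182). Its Cy5 intensity was 0.02 to 0.03 on 7 arrays and 0.07 on tMCAO replicate 4, where the pool also read 0.08, so that array was brighter in both channels. Nos1 probe 3 read 0.02 to 0.03 in Cy5 on all arrays, with a difference of -0.15 ± 0.26 (SE; 95% interval -0.74 to 0.45; adjusted p = 0.693). The 3 probes of Nos1 thus had differences of both signs, and none was called; over the alternatives only probe 1 was, in 3 of 22.

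Nos2, the inducible synthase, was not called on any of 3 probes. The Cy5 intensity of probe 1 was 0.05, 0.05, 0.05 and 0.07 in sham animals and 0.04, 0.05, 0.05 and 0.05 in tMCAO animals, and its log2 ratio was 0 on all 4 tMCAO arrays. The differences were 0.13 ± 0.09 (95% interval -0.08 to 0.34; adjusted p = 0.304) on probe 1, -0.22 ± 0.15 (-0.57 to 0.12; adjusted p = 0.292) on probe 2 and 0.00 ± 0.19 (-0.42 to 0.42; adjusted p = 1) on probe 3. The highest of these upper ends is 1.34-fold, on probe 3. The signals were 0.02 to 0.07, however, and rounding leaves room for 2.19-fold in either direction on that probe. Without sham replicate 3, probe 2 was called lower (-0.38, adjusted p = 0.0236).

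The background measured the same way was the sham animals against the sham pool. None of the 13 member probes was called there at a limma adjusted p under 0.05, against 0.0556% of all probes. At an unadjusted p under 0.05, 1 was called (Nos1 probe 1), against 7.83% of all probes. The error of this fit came from both groups, so the wider spread of tMCAO animals enters it. For Cyba probe 1 the SE was 0.25, with an SD of 0.15 among sham and 0.81 among tMCAO animals. A probe without a call is thus not shown to equal the pool.

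By a rule that did not look at function, the probes of most like pattern over the 8 arrays were listed for the 4 member probes with a mean Cy5 intensity of at least 0.1, among 12009 probes of other symbols that met the same limit. Nearest to Cyba probe 1 were Anxa1 (annexin A1) and Clec4a3 (a C-type lectin receptor), at root mean square distances of 0.165 and 0.168 log2 units. On tMCAO replicate 4 they stood at 1.49 and 1.47, next to 1.49 for Cyba. Nearest to Nos3 were Rps21 and Rpl18 (ribosomal proteins) and Sppl2b (a membrane protease), at 0.080, 0.089 and 0.092. Nearest to Cyba probe 2 were Tp53i13, Wdr81 and Vegfb, and nearest to Ncf1 probe 1 were Zic4, Fdps and Itpkb, at distances of up to 0.084 and up to 0.070 log2 units. All 8 values share the pool and the arrays, so likeness here is a description.

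Other genes around these enzymes were taken from lists of 8 roles, each gene by its probe of highest mean signal. Of 10879 symbols taken in this way, 18.8% were called higher and 16.7% lower, with a median log2 difference of -0.02. Counts per list moved with the processing, and ranges given beside them are over 22 alternatives, which leave out the stricter threshold. The brightest probes shared values within an array (35 probes at a Cy5 intensity of 19.26 on tMCAO replicate 1, 48 at 23.87 on replicate 3), and of the genes named below Prkcb, Calm3, Pde2a, Cebpb, Fn1, Kdr, Sst and Gfap reached 19.26 or more on at least 1 array. Of 13 further oxidase genes 5 were measured, and 3 rose, none fell and 2 were not called; their median was 0.31. The number that rose was 1 to 3 over the alternatives and 1 without sham replicate 4. Rac2, the Rac GTPase of blood cells, went from a mean Cy5 intensity of 0.33 to 2.65, a log2 difference of 2.49 ± 0.20 (SE; limma adjusted p = 0.0011; 5.37- to 5.87-fold within rounding), and was at 2.02 on tMCAO replicate 4. Its other probe did not move (-0.07). Rap1a, a small GTPase found with the phagocyte cytochrome (0.69 ± 0.17), and Rac1, the Rac of most tissues (0.31 ± 0.08), were also called, but their other probes stood at 0.02 and their calls were lost in 5 and 6 of 22 alternatives. Nox1 (-0.24 ± 0.13) and Duox2 (-0.21 ± 0.28), named after their values were seen, were not called.

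Of the kinases and adaptors that act on p47phox, 7 of 10 were measured, and 2 rose, 3 fell and 2 were not called (median -0.37). Prkcd, a protein kinase C that acts in phagocytes among other cells, rose by 1.06 ± 0.20, and Lyn, a Src-family kinase of leukocytes, by 0.69 ± 0.17. The Cy5 intensity of Lyn averaged 0.09 in sham and 0.095 in tMCAO animals, while its pool signal fell by 0.61 on the log2 scale from sham to tMCAO arrays, and its call was lost in 7 of 21 alternatives. Pak1, a Rac-activated kinase abundant in neurons, fell by 1.38 ± 0.22, and Prkcb, a protein kinase C of neurons and leukocytes, fell by 1.11 ± 0.18. Over the alternatives 1 or 2 genes of the list rose and 2 to 4 fell.

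Superoxide and peroxide are removed by dismutases, catalase and peroxidases, and 3 of 6 such genes rose while none fell (median 0.60). They were the peroxiredoxin Prdx1 (1.15 ± 0.17), the glutathione peroxidase Gpx1 (1.04 ± 0.17) and the mitochondrial dismutase Sod2 (0.67 ± 0.11), and each of their other probes was also above 0. With quantile-normalized ratios 2 of the 6 were called, and the Prdx1 call was the one lost.

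All 6 genes of the supply of tetrahydrobiopterin, the cofactor of the synthases, were measured; 2 rose, none fell and 4 were not called (median 0.03). Gch1, the rate-limiting cyclohydrolase, was higher by 0.89 ± 0.26 and Gchfr, the protein that regulates it, by 1.18 ± 0.28. The Gch1 call was lost in 10 of 22 alternatives, and with quantile-normalized ratios its difference was 0.04 (adjusted p = 0.939) and neither gene was called. Qdpr, which recycles the cofactor, stood at 0.08 ± 0.19 and Spr, its last synthetic enzyme, at -0.39 ± 0.13, both uncalled.

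Arginine is the substrate of the synthases and is also used by arginases. Of 8 genes of its supply and use, 2 rose, 1 fell and 5 were not called (median 0.26). Arg1, the cytosolic arginase, went from a mean Cy5 intensity of 0.29 to 1.5 (log2 difference 1.99 ± 0.40, adjusted p = 0.0095), while Arg2, the mitochondrial arginase, went from 0.44 to 0.13 (-1.79 ± 0.36, adjusted p = 0.0093). Their groups did not overlap, and both calls were kept in all 22 alternatives. On tMCAO replicate 4 Arg1 stood at 1.34 and Arg2 at -0.29. Slc7a1, a cationic amino acid transporter, rose by 0.81 ± 0.12. Ddah2 (0.29 ± 0.15) and Ddah1 (0.28 ± 0.16), which break down the methylarginines that inhibit the synthases, were not called; without tMCAO replicate 4 the list had 4 higher and 1 lower, Ddah1 among the higher (0.44, adjusted p = 0.01).

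Of the proteins that bind the synthases, 10 of 11 were measured, and 1 rose, 3 fell and 6 were not called (median -0.17). Cav1, the caveolin that holds the endothelial enzyme, rose by 1.11 ± 0.25. Dlg4, the postsynaptic scaffold PSD-95 that anchors neuronal synthase, fell by 1.08 ± 0.30, and Nos1ap, an adaptor of the same enzyme, by 0.41 ± 0.10 (all 3 of its probes were lower). The Dlg4 call was lost in 9 of 22 alternatives. Calm3 was not called on this probe (-0.36 ± 0.13; called lower in 7 of 22 alternatives) but was called lower on its other probe (-1.77). Dynll1, a dynein light chain that binds neuronal synthase, was not called (0.17 ± 0.11). The number that fell was 1 to 5 over the alternatives and 5 without tMCAO replicate 4.

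Nitric oxide acts through soluble guanylate cyclase and cyclic GMP. Of 7 genes of this pathway 6 were measured; 4 fell, none rose and 2 were not called, and the median of -0.79 was the lowest of the 8 lists. Only 2 were called lower on leaving out any 1 of the 4 sham arrays or of tMCAO replicates 1 to 3, with quantile-normalized ratios and without variance moderation, and 5 without tMCAO replicate 4; none rose in any alternative. The cyclase subunits Gucy1a1 (-1.64 ± 0.44), Gucy1b1 (-1.34 ± 0.34) and Gucy1a2 (-0.71 ± 0.09) and the phosphodiesterase Pde2a (-0.84 ± 0.19) were lower. Gucy1a1 and Gucy1b1 lost their calls in 9 and 8 of 22 alternatives. On tMCAO replicate 4 they stood at -0.23 and -0.34, and without it at -2.14 and -1.71. All 6 neuron markers were lower in the same animals, as given above, and their part in this result was not tested.

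Inducers of Nos2 and their receptors and transcription factors were measured for 11 of 11 genes, of which 8 rose, none fell and 3 were not called (median 0.71). Il1b, the cytokine interleukin-1 beta, was higher by 1.94 ± 0.45 and Tnfrsf1a, the tumour necrosis factor receptor, by 1.32 ± 0.20. Ifngr1, a chain of the interferon gamma receptor, was higher by 1.31 ± 0.33 but lost its call in 7 of 22 alternatives, as did Rela, a subunit of NF-kappaB (0.92 ± 0.23), whose other 2 probes stood at -0.14 and -0.03. The cytokine genes Ifng (0.25 ± 0.21, adjusted p = 0.388) and Tnf (-0.12 ± 0.08, adjusted p = 0.283) and the factor Cebpb (0.48 ± 0.22) were not called; these 3 are named after their values were seen. With quantile-normalized ratios the list had 3 genes higher, and the list median of log2 ratios, as deposited, was 0.31 in tMCAO replicate 4, 1.14 to 1.36 in the other tMCAO animals and 0.02 to 0.25 in sham animals.

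Markers of the cells known to carry these enzymes moved in the same samples. Of 12 phagocyte markers 11 were measured and 10 rose, among them Ptprc (2.83 ± 0.39), Fcgr3a (2.72 ± 0.18) and Cd14 (2.25 ± 0.21). The summed Cy5 intensity of the list was 13.9 to 14.4 in sham and 24.4 to 53.2 in tMCAO animals. Within tMCAO it was lowest in replicate 4, where Cyba probe 1 was also lowest. That is not particular to phagocytes, as the ratios of that array had a smaller spread over all probes. The summed signals of the neutrophil, microglia, monocyte, endothelial and meningeal lists were lowest there too. Spi1, which encodes PU.1, was not called (0.31 ± 0.13, adjusted p = 0.104; Cy5 0.045 in both groups). Of 10 neutrophil markers 6 were measured and 2 rose, Lcn2 (2.14 ± 0.30) and Mmp9 (2.02 ± 0.26), which other cells also make; 4 rose without tMCAO replicate 4. The more specific S100a9 stood at 1.80 ± 0.89 (adjusted p = 0.154), and the neutrophil granule genes Mpo and Elane were not measured. Across the 6 measured genes the median difference was 1.70. Their ratios in tMCAO replicate 4 were spread from -0.81 (S100a9) to 2.83 (Lcn2), with 0.29 as the middle value. The summed neutrophil signal was 0.78 to 2.26 in sham and 2.87 to 9.18 in tMCAO animals. Spi1 and S100a9 are named here after their values were seen.

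Of 6 measured microglia identity genes 1 rose, Cx3cr1 (1.28 ± 0.25), and 3 without tMCAO replicate 4; against the pool alone 3 were higher and 2 lower. Of 8 monocyte and macrophage markers 5 rose, among them Arg1, Fn1 (1.64 ± 0.28) and Vcan (1.57 ± 0.31), with 3 to 6 over the alternatives. The summed signal was 9.47 to 10.6 in sham and 10.3 to 17.0 in tMCAO animals for the microglia list and 5.85 to 9.07 and 15.9 to 30.6 for the monocyte list. Of T, NK and B cell markers 3 of 7 measured were called higher (0 to 5 over the alternatives, 1 without sham replicate 1, 2 or 4 and 5 without tMCAO replicate 4), with summed signals of 1.28 to 1.39 and 1.16 to 1.79 that overlapped. No Cy5 intensity of any list was at 0. The part of these cells in the Cyba and Cybb differences was not tested.

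Around Nos3, 6 of 10 measured endothelial markers rose and 1 fell; 4 rose and none fell on leaving out any 1 array but tMCAO replicate 4, and 8 rose without that one. Tek (2.43 ± 0.32) and Kdr (1.79 ± 0.35), both endothelial growth factor receptors, and the sialomucin Emcn (1.55 ± 0.30) were among those that rose. The summed Cy5 intensity of the list was 14.2 to 14.9 in sham and 18.5 to 50.8 in tMCAO animals. The ratios of tMCAO replicate 4 had a smaller spread over all probes, as given above. In that animal the endothelial list had a median log2 ratio of 0.21 and Nos3 was at 0.24. The other 3 tMCAO animals had 1.47 to 1.84 for the list and 0.53 to 0.92 for Nos3. The pericyte and smooth muscle median was -0.14 in replicate 4 and 0.33 to 0.47 in those 3. Of 7 pericyte and smooth muscle markers 4 rose and 1, Rgs5, fell (-1.16 ± 0.19), with summed signals of 3.64 to 4.2 and 7.23 to 14.4, and of 6 meningeal fibroblast markers 5 rose, with 2.62 to 3.31 and 3.98 to 8.73. These counts were also unsteady: without sham replicate 2 or tMCAO replicate 2, 1 pericyte and smooth muscle marker and 2 meningeal markers rose, and the ranges over the alternatives were 1 to 4 and 2 to 5. The part of the vessel markers in the Nos3 difference was not tested.

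Around Nos1, 2 of 5 measured markers of the interneurons that carry it fell, Sst (-0.54 ± 0.16) and Gad2 (-0.49 ± 0.15), and none rose. Their calls were lost in 9 and 12 of 22 alternatives, and none of the 5 was called lower on leaving out any 1 sham array or tMCAO replicate 1 or 3, with the replicate block, with quantile-normalized ratios or without variance moderation. Without tMCAO replicate 4, Gad2 was not called (-0.42, adjusted p = 0.0635) and 1 marker of the list was called higher and 1 lower. Their summed signal was 25.99 to 28.2 in sham and 17.7 to 24.3 in tMCAO animals. Of 6 astrocyte markers, Gfap rose (1.42 ± 0.21) and 3 fell (1 to 3 over the alternatives), and neither of 2 measured red blood cell markers was called.

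**Figure D4:**
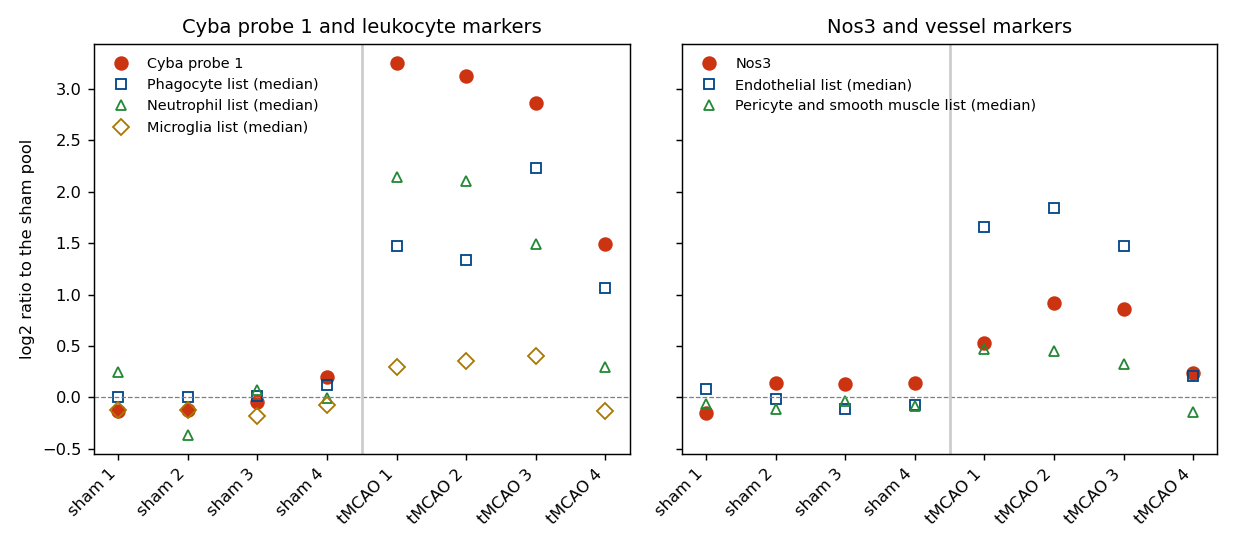
Log2 ratio to the sham pool on each of the 8 arrays, for Cyba probe 1 with the median of the phagocyte, neutrophil and microglia lists (left) and for Nos3 with the median of the endothelial and the pericyte and smooth muscle lists (right). On tMCAO replicate 4, Cyba probe 1 is at 1.49, with medians of 1.07 (phagocyte), 0.29 (neutrophil) and -0.14 (microglia). On the same array Nos3 is at 0.24, with medians of 0.21 (endothelial) and -0.14 (pericyte and smooth muscle).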

How the data were processed

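The members, gene lists and tests were chosen with earlier results of these data known. Each of the 8 arrays was a 2-colour Agilent array. Per the file headers, the deposited table holds for every array 1 normalized intensity for each channel and a p-value; the scaling of the intensity and the error model of the deposited p-value are not given in the sources used here. Agilent Feature Extraction 8.5.1.1 is named in the submitters' processing notes. A second deposited table holds log10 values; they equal log10(Cy5/Cy3) of the rounded intensities within 0.0165 log2 units and were used as an alternative. No column was left unmapped (0), and 233 probes lacking a value on an array were left out.

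log2(Cy5/Cy3) was computed as deposited, with no further normalization, and fitted per probe with a mean per group over 23376 probes (limma 3.58.1, lmFit and eBayes, R 4.3.3, two-sided, Benjamini-Hochberg over all probes, call threshold 0.05). This fit also gave sham against the pool, and another the pool signal. Intervals are at 95%. Other symbols were updated through RefSeq (2120 probes), and 28 symbols that had become dates were not used. The number of arrays, 4 per group, limits the precision. The fit was checked on simulated ratios with independent normal noise per probe. These held no rounding and no array like tMCAO replicate 4, so the check says nothing of those limits.

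All member probes are named. Of each pathway list up to 4 called genes by size of difference are named, with 2 uncalled ones by signal where fewer are called than not, and of each marker list up to 3; genes outside this rule are said to be named after their values were seen. Same-numbered animals did not deviate together (correlations of deviations -0.06 to 0.03), and the main fit did not pair them. Such correlations, over 4 animals per group, cannot exclude a pairing. Alternatives were median centring, quantile normalization, Cy5 on its own, the pool as the only control, other filters and variance models, the handling of multiple probes, the log10 table, the replicate block, a stricter threshold and leaving out each array. The stricter threshold was not applied to the list genes. Some genes that these rules name are not reported here.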

Additional observations from a re-analysis of the deposited data

Results flagged for a closer look

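Among the 26 sets of 4 log2 ratios (13 probes in each group), 7 held an animal far from the other 3, where the gap to the nearest exceeded Dixon's 95% critical share of the range. Chance alone marks about 1 set in 20, and 6 of the 7 lie on probes with a mean Cy5 intensity below 0.1, where 1 rounding step makes a ratio of 0.58 or 1. These were Nos1 probe 2 in sham replicate 2 (0.585, the others at 0), Nos2 probe 3 in sham replicate 1 (0.585, the others at 0) and in tMCAO replicate 1 (0.585, the others at 0), Cybb in sham replicate 2 (-1, the others at 0) and in tMCAO replicate 1 (1, the others at 0.585), and Nos2 probe 2 in sham replicate 3 (-0.263, the others at 0.32 to 0.42). The 7th was Nos3 in sham replicate 1, at -0.152 with the other sham animals at 0.13 to 0.14; without this animal the Nos3 difference was 0.50 (adjusted p = 0.076).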

How the results depend on the processing

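The numbers of called probes depended on the processing. Over all probes, 3380 were higher and 3540 lower, against 1892 and 1691 with quantile-normalized ratios, 5152 and 6034 with the pool alone as the control, 5206 and 5993 with array weights, 1391 and 1018 at an adjusted p under 0.01, and 2235 to 4920 and 2020 to 5472 on leaving out 1 array. Of the member probes, 3 were higher, against 1 with quantile-normalized ratios, without moderation or at an adjusted p under 0.01, 5 with the pool alone or array weights, and 1 to 5 on leaving out 1 array (5 without tMCAO replicate 4, 1 without tMCAO replicate 1); none was lower except 1 without sham replicate 3 (range 0 to 1). In sham against the pool, 1 member probe was called with quantile-normalized ratios and 0 otherwise. The Cybb difference reversed to -0.431 at its lowest within rounding. Cyba probe 1 kept its call in 23 of 23 alternatives, Cybb in 17 of 22 and Nos3 in 12 of 23. A replicate block gave 2543 probes higher and 2393 lower and 3 member probes higher (Nos3 adjusted p = 0.044, Cybb 0.029, Cyba probe 1 0.0191), so it changed no member call; 1 of 4 animals correlated best with its own number. Among uncalled member probes the sign of the difference changed 21 times over the 285 values of all member probes. Of 58 called genes named from the lists, 26 kept their call in every alternative but the stricter threshold, which was not applied to them. Of the 58, 22 lost their call with quantile-normalized ratios and 2 without tMCAO replicate 4, and none changed direction. Signals of a few rounding steps limit Nos1, Nos2, Cybb and Nox4. Where not stated, the cause of a change was not tested.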
